A study of Mus musculus with 6 samples.

Results

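Mouse alveolar macrophages that received vitamin D3 (VD3) together with lipopolysaccharide (LPS) were compared with macrophages that received LPS alone. The comparison rests on 4 of the 6 RNA-seq libraries of the study, 2 per group, and on 10724 of the 23413 genes in the count table, which are the genes with enough counts to be tested. The cells came from wild-type mice, by lavage of the airspaces, and received, in culture, 100 ng/mL LPS for 4 h, or the same LPS and 50 nM VD3. A control group of 2 libraries carries neither agent in its label, and its culture is not described further. It entered the fit to share the estimate of spread, so the adjusted p and the number of calls depend on it too. Its levels are given beside the others. The labels do not state whether the 2 libraries of a group stem from different mice or wells, so p-values here reflect only how far these libraries vary, and that variation may be technical. In the text, a pair of values for a group is always in the order library 1, library 2.

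LPS coats Gram-negative bacteria, and macrophages sense it through Tlr4 with the help of Cd14. This starts NF-kB and MAP kinase signalling, which induces cytokines and chemokines, and a branch that induces interferon beta, which in turn switches on interferon-stimulated genes through Jak kinases and Stat factors. VD3 is converted by hydroxylation into a hormone that binds the nuclear receptor Vdr. Vdr then pairs with a retinoid X receptor on DNA and turns on genes such as Cyp24a1, whose product breaks the hormone down.

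Total counts were 5148787 and 5298428 for the LPS libraries, 5198957 and 5465223 for LPS + VD3 and 5022314 and 5454955 for control. Levels below are in CPM, read counts relative to the library's total after TMM scaling. The LPS libraries were less like each other than the other pairs were: across genes, log2 CPM correlated with a Pearson's r of 0.969 for LPS, 0.981 for LPS + VD3 and 0.991 for control. How far LPS 1 and LPS 2 differed went with transcript GC content (a rho of 0.678 by Spearman's rank method, across genes), against 0.191 for the LPS + VD3 pair and 0.245 for the control pair. Genes are not independent replicates, so these correlations are descriptions. The label of LPS 1 also comes from another number series than those of the other 5 libraries. In the comparison the gradient was steeper against LPS 1 than against LPS 2. Among the GC-richest genes of 5 equal GC bins, the LPS + VD3 mean was a median 0.61 log2 units below LPS 1 and 0.10 below LPS 2, and in the GC-poorest bin it was 0.52 above LPS 1 and 0.05 above LPS 2. The fold changes of LPS + VD3 against LPS followed GC with rho of -0.504. The value was -0.0153 when each library's GC trend was taken out by offsets in the fit, which is called GC offsets below, and -0.141 without LPS 1.

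**Figure D1:**
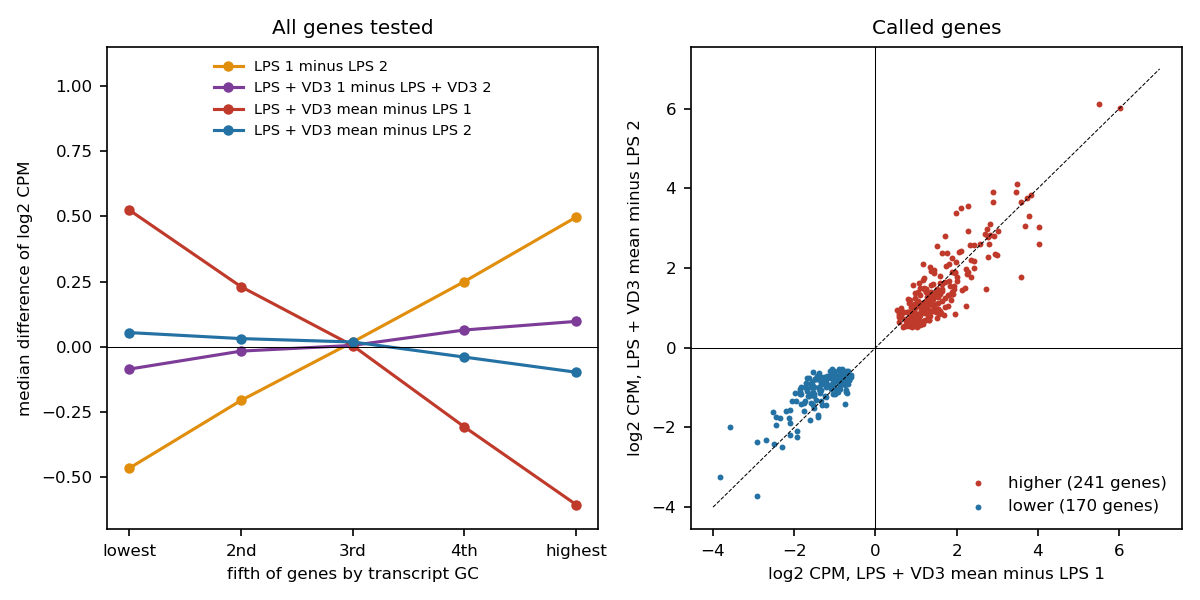
Left, median difference of log2 CPM (y axis) in 5 equal bins of the tested genes by transcript GC content (x axis) for 4 pairs of libraries or means, where the lines that hold LPS 1 run between -0.61 and 0.52 and the others stay between -0.10 and 0.10. Right, for the 411 called genes, the LPS + VD3 mean minus LPS 1 (x axis) against the same mean minus LPS 2 (y axis) in log2 CPM, where every called gene lies on the same side of 0 against both libraries.

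By edgeR's quasi-likelihood test with a Benjamini-Hochberg adjusted p under 0.05, 241 genes were higher and 170 lower in LPS + VD3 than in LPS, which is 3.83% of the genes tested (2.25% higher, 1.59% lower). Of these, 171 and 95 differed by at least 2-fold. The median log2 fold change was 1.24 for the higher genes, -1.06 for the lower genes and 0.00 (-0.003) for all genes tested. Counts of calls in the gene lists below are to be read beside the 3.83% of all genes tested. The lists were chosen with earlier results of these data known, so a larger share in a list does not measure enrichment. In short lists, 1 or 2 calls say little about the list as a whole. None of the 411 called genes had overlapping libraries between the groups, which was also true of 48.1% of all genes tested. The called genes lay unevenly over GC content. Among higher genes 56, 58, 56, 44 and 27 fell into the bins from lowest to highest GC, and among lower genes 7, 21, 30, 49 and 62. With GC offsets the counts were 483 higher (4.50%) and 305 lower (2.84%), spread more evenly over the bins (83 to 106 higher, 52 to 66 lower), and 233 of the 241 and 152 of the 170 calls held. Without LPS 1, 219 of the higher and 138 of the lower calls held. No called gene changed its sign in any alternative fit. As their libraries do not overlap between the groups, leaving out 1 library could hardly have reversed a sign. Each group holds only 2 libraries, and the number of calls depended on which of them entered the fit. It was smaller with only the 4 compared libraries (165 higher, 93 lower). It was also smaller without LPS + VD3 1, LPS + VD3 2 or either control library, and larger without LPS 1 or LPS 2. The cause of these moves was not tested. Calls that held in each of the 6 fits that left out 1 library are therefore named as such below, and 47 higher and 2 lower genes did so.

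**Figure D2:**
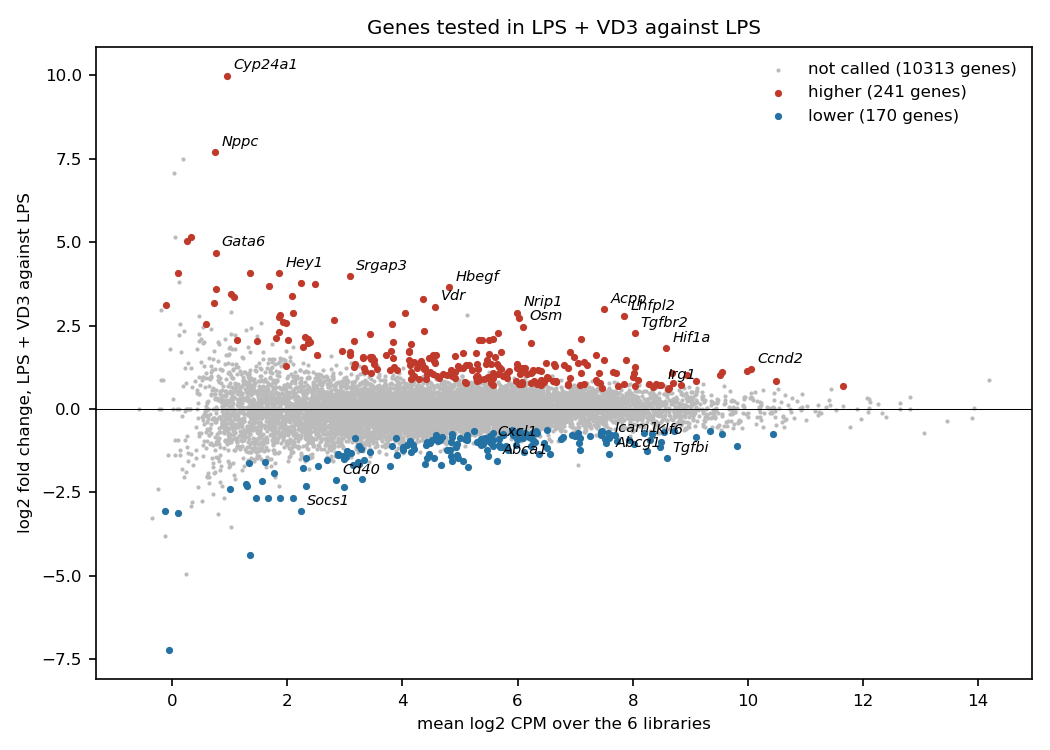
Log2 fold change of LPS + VD3 against LPS (y axis) by mean log2 CPM over the 6 libraries (x axis) for the 10724 genes tested. Red points are the 241 genes called higher, blue points the 170 called lower and grey points the rest, with selected genes named. The higher genes reach larger fold changes than the lower ones, from low levels (Cyp24a1, Nppc) to high ones (Acpp, Lhfpl2).

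Of the genes of the vitamin D receptor system (the receptor, its partners, cofactors and the enzymes that make or break down the hormone), 14 had enough counts, 2 rose, Vdr and Cyp24a1, and none fell. The median log2 fold change of the list was 0.27. Which LPS library entered moved such medians, so each is followed by its lowest and highest value over 9 fits with GC offsets, without 1 library, or both. For these genes it ran from 0.15 to 0.42. Cyp24a1, the 24-hydroxylase, had 0 counts in both LPS libraries and 236 counts over both LPS + VD3 libraries, or 23.4 and 24.6 CPM, with 0.342 and 0.48 CPM in control. Against the limit that 3 counts over the LPS group set, it was at least 78.8-fold higher (edgeR adjusted p = 7.32e-05). Vdr itself stood at 4.71 and 3.84 CPM in LPS, 32.8 and 39.2 CPM in LPS + VD3 and 77.2 and 79.9 CPM in control. The 3 groups do not overlap, and LPS + VD3 lies between the other two. The Vdr fold change was 3.07 ± 0.23 on the log2 scale (SE; edgeR adjusted p = 0.000102). Both calls held in every alternative that could test them. The retinoid X receptors showed no such rise. Rxra was at 105 and 85.2 CPM in LPS and 69.2 and 57.8 CPM in LPS + VD3, a log2 fold change of -0.58 ± 0.17 that did not pass (edgeR adjusted p = 0.0994) and was -0.25 with GC offsets. Without LPS 2 it passed (0.00272). Rxrb was at -0.36 ± 0.32. The corepressor Ncor1 stood at 0.40 ± 0.18, and Pdia3, a protein disulfide isomerase also described as a membrane binding protein of the hormone, at 0.26 ± 0.16. None of these passed the edgeR test. Cyp27b1, the enzyme that makes the active hormone, had 0 counts in LPS and control and 3 counts over both LPS + VD3 libraries, too few to test.

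In the RefSeq windows from 250 bases before to 50 bases after a gene's start (build GRCm38.p6), 8095 of the tested genes had an entry. The element bound by Vdr and its partner is a pair of half-sites in the same orientation 3 bases apart. With AGGTCA as the first form of the half-site, AGTTCA as the second form searched, GGGTCA as the third form searched and GGTTCA as the fourth, all on both strands, such a pair was found in 13 of 32841 windows and in none of the windows of called genes. These covered 176 of the 241 higher and 137 of the 170 lower genes, and Cyp24a1 had no window. A single half-site is common: 43.7% of all windows, 37.6% of those of tested genes, 38.1% of those of higher genes and 41.0% of those of lower genes held 1 or more. The stretches before the starts of Vdr and of Nrip1, a raised coregulator described below, show such single half-sites in capitals. The Vdr stretch is chr15:97908367-97908402, 106 to 71 bases before the start, and the Nrip1 stretch is chr16:76373890-76374056, 229 to 63 bases before the start, both on the minus strand and read 5′ to 3′ along the gene.
Vdr: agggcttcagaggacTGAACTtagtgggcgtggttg
Nrip1: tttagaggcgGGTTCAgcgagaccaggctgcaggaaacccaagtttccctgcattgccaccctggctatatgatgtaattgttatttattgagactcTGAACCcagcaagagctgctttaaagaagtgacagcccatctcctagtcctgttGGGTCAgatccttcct
A match is a description of these letters and not a shown binding site.

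Among 28 tested genes known as Vdr targets from other cells, 5 rose and 2 fell, with a median of 0.01 (-0.09 to 0.10 over the 9 fits). Besides Cyp24a1, the risers were Hbegf, Osm, Hif1a and Gadd45a. Hif1a, the oxygen-regulated subunit of a transcription factor that also drives glycolytic genes, was at 233 and 379 CPM in LPS and 957 and 1212 CPM in LPS + VD3, above the 162 and 186 CPM of control. Its fold change was 1.82 ± 0.23 on the log2 scale (edgeR adjusted p = 0.00227). The LPS libraries differ for this AT-rich transcript in the direction of the GC gradient, and the GC offsets gave 1.57. Gadd45a, a stress-induced growth arrest gene, rose by 1.52 ± 0.18, but 19.5% of its exon bases lie opposite another gene, so its count is uncertain where reads are not assigned by strand. Txnip, which binds thioredoxin, fell by 0.79 ± 0.14, with the same limit for 21.4% of its exon bases. Srxn1, the antioxidant enzyme sulfiredoxin, fell by 0.66 ± 0.15. Spp1, the gene of osteopontin, and Txnrd1, a thioredoxin reductase, are Vdr targets elsewhere and stood at 0.28 ± 0.14 and 0.03 ± 0.15, which did not pass. Without LPS + VD3 2 the calls of Gadd45a, Hif1a, Txnip and Srxn1 were lost (edgeR adjusted p from 0.0525 to 0.364), and without LPS + VD3 1 those of Txnip and Srxn1 (0.132 and 0.099). The latter 2 were also lost in the fit of the 4 compared libraries only (0.06 and 0.122) and without control 1 (0.0686 and 0.138) or control 2 (0.0688 and 0.138).

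Of 21 tested growth factors with roles in tissue repair, 5 rose and 1 fell, with a median of 0.02 (-0.09 to 0.16 over the 9 fits). The counts were 6 and 4 with GC offsets. Hbegf, which binds the epidermal growth factor receptor, was at 16.2 and 15.4 CPM in LPS and at 198 and 197 CPM in LPS + VD3, against 7.87 and 5.6 CPM in control. Pdgfb, a subunit of platelet-derived growth factor that acts on fibroblasts and smooth muscle, was at 23.6 and 20 CPM in LPS and 169 and 150 CPM in LPS + VD3, against 0.855 and 0.96 CPM in control. Both groups are far apart relative to their spread, and the Pdgfb fold change was 2.88 ± 0.18 (edgeR adjusted p = 3.95e-05). The other subunit, Pdgfa, was at 1.02 and 1.62 CPM in LPS and 8.15 and 10.5 CPM in LPS + VD3, a rise of 2.80 ± 0.39. Gdf15, a stress-induced member of the TGF-beta family, was at 4.71 and 2.83 CPM in LPS and 25.1 and 23.3 CPM in LPS + VD3. It rose by 2.67 ± 0.29 (edgeR adjusted p = 0.000915), with control at 3.59 and 2.72 CPM, close to LPS. Nppc, the C-type natriuretic peptide, had 1 count in LPS and 256 in LPS + VD3, a ratio of 256 (95% counting interval 45.6 to 10200), and 0 CPM in both control libraries. Areg, the epidermal growth factor family member amphiregulin, went the other way. It was at 47.1 and 28.9 CPM in LPS and 15.5 and 14.7 CPM in LPS + VD3, a log2 fold change of -1.33 ± 0.27 (edgeR adjusted p = 0.024). Tgfb1, Inhba and Grn, the genes of TGF-beta 1, an activin subunit and progranulin, stood at 0.34 ± 0.20, -0.05 ± 0.14 and -0.44 ± 0.16 and did not pass. With GC offsets Tgfb1, a GC-rich transcript, was at 0.90 and passed (0.00784). The calls of Hbegf, Pdgfb, Gdf15 and Nppc held in each fit without 1 library. The Pdgfa call was lost without LPS + VD3 2 (0.0833), and that of Areg without LPS + VD3 1 (0.17) or 2 (0.29) and with no filter beyond 1 count (0.0964).

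Of 24 inflammatory cytokines with enough counts, 5 rose and 1, Areg, fell, while the median of the list was -0.25 (-0.48 to -0.10 over the 9 fits). With GC offsets 6 rose and 3 fell, and without LPS 2 the counts were 5 and 9. Osm and Lif, which signal through the shared receptor chain Il6st, both rose: Osm from 62.5 and 52.1 CPM to 364 and 270 CPM, and Lif from 19.7 and 19.2 CPM to 61.0 and 58.6 CPM. Control was lower still, at 16.8 and 17.9 CPM for Osm and 10.8 and 11.2 CPM for Lif. Csf1, the growth factor of macrophages, was at 12.9 and 18.2 CPM in LPS and 46.4 and 55.7 CPM in LPS + VD3. Il12b, the p40 chain of interleukins 12 and 23, was at 180 and 173 CPM in LPS and 431 and 452 CPM in LPS + VD3, against 0.342 and 0 CPM in control. Its fold change was 1.32 ± 0.19 (edgeR adjusted p = 0.00354). Il33, an alarmin, rose from 4.3 and 1.82 CPM to 11.9 and 18.5 CPM.

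The most abundant LPS-induced cytokines did not pass the test. Tnf was at 2954 and 2220 CPM in LPS and 1693 and 1937 CPM in LPS + VD3. The groups do not overlap, but the lower LPS library lies close to the higher LPS + VD3 library. Il1b was at 12282 and 10197 CPM in LPS and 8070 and 7278 CPM in LPS + VD3, and Il6 at 1167 and 1197 against 1162 and 1326 CPM, which overlap. Il1a and Il1rn, the antagonist of the interleukin 1 receptor, were at 0.26 ± 0.16 and -0.26 ± 0.15. Il1b, at -0.55 ± 0.16 (edgeR adjusted p = 0.10), passed with GC offsets (0.0303), with DESeq2 (0.0211) and without LPS 2 (0.00217). Tnf passed without LPS 2 (0.0014), a fit whose fold changes follow GC with rho of -0.611.

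Of 35 tested cytokine receptor genes 2 rose and none fell, a share not far from the 3.83% called among all genes tested. Tgfbr2, the TGF-beta receptor that alveolar macrophages need to develop and persist, was at 90.4 and 99.2 CPM in LPS and 465 and 456 CPM in LPS + VD3. Control stood at 402 and 417 CPM, so both LPS + VD3 libraries lay above control and both LPS libraries far below it. The fold change against LPS was 2.28 ± 0.15 (edgeR adjusted p = 3.95e-05). Il6st, the receptor chain for Osm and Lif, was at 46.1 and 62 CPM in LPS and 117 and 121 CPM in LPS + VD3, a rise of 1.14 ± 0.18. The shared beta chain of the GM-CSF receptor, Csf2rb, its relative Csf2rb2 and the TNF receptor Tnfrsf1b, which did not pass, stood at -0.28 ± 0.15, -0.14 ± 0.15 and -0.21 ± 0.15. The calls of Osm, Lif and Tgfbr2 held in each fit without 1 library. With LPS + VD3 2 left out those of Csf1, Il12b, Il33 and Il6st were lost (edgeR adjusted p from 0.0733 to 0.186), and without LPS + VD3 1 those of Il12b, Il33 and Il6st (0.0537 to 0.0903).

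Of 22 tested chemokines and chemokine receptors, 4 rose and 4 fell, with a median of -0.31 (-0.49 to -0.10 over the 9 fits). Without LPS 2 the counts were 6 and 9, without LPS + VD3 2 they were 2 and 0, and with no filter on low counts 3 and 2. Ccl2, an attractant of monocytes, was at 61.1 and 54.1 CPM in LPS and 235 and 251 CPM in LPS + VD3, a rise of 2.08 ± 0.20 (edgeR adjusted p = 0.000431). Ccl7, a neighbour of Ccl2 that binds some of the same receptors, went from 6.56 and 6.87 CPM to 26.8 and 26.4 CPM. Ccrl2, a receptor that holds chemerin at the cell surface without signalling itself, went from 212 and 175 CPM to 441 and 392 CPM. Cxcl1, a neutrophil attractant, moved down from 517 and 506 CPM to 242 and 264 CPM, a log2 fold change of -1.01 ± 0.14 (edgeR adjusted p = 0.00367). Control held 0.342 and 0.48 CPM of Cxcl1, far below both groups. Cxcl16, which attracts T cells, fell by 0.93 ± 0.17, with 20.5% of its exon bases opposite another gene. Ccl3, Ccl6 and Cxcl3 stood at -0.10 ± 0.19, 0.34 ± 0.14 and -0.25 ± 0.16, and Cxcl10, induced by interferon, at -0.11 ± 0.17, and did not pass. Among the other called members were the attractants Ccl9, which rose by 0.68 ± 0.15, and Cxcl14, which fell by 1.28 ± 0.28. Ccl9 lost its call with GC offsets (0.213). The calls of Ccl2 and Ccl7 held in each fit without 1 library. Without LPS + VD3 2 those of Ccrl2, Ccl9, Cxcl1, Cxcl14 and Cxcl16 were lost (edgeR adjusted p from 0.059 to 0.29), as they were without LPS + VD3 1 (0.0746 to 0.186). Ccl9 was also lost without control 1 (0.13) or 2 (0.127), and Cxcl14 without control 1 (0.0512) or LPS 1 (0.0534).

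The genes raised most by fold, among those with a mean log2 CPM of at least 2, were of varied function. Acpp, the prostatic acid phosphatase, which also makes adenosine outside the cell, was at 212 and 224 CPM in LPS and 1668 and 1778 CPM in LPS + VD3, against 16.8 and 14.7 CPM in control. Lhfpl2, a tetraspan membrane protein, was at 96.7 and 86.7 CPM in LPS and 662 and 606 CPM in LPS + VD3. Nrip1, a coregulator of nuclear receptors, was at 26.4 and 29.1 CPM in LPS and 183 and 228 CPM in LPS + VD3. For these 3 genes the spread within a group was small beside the distance between groups, and the fold changes were 2.98 ± 0.15, 2.79 ± 0.15 and 2.89 ± 0.18 (edgeR adjusted p = 1.87e-05, 2.01e-05 and 3.95e-05). On GRCm38 Acpp lies on chromosome 9 at 104288240 to 104337722, Nrip1 on chromosome 16 at 76287403 to 76373827, Tgfbr2 on chromosome 9 at 116087695 to 116175363 and Pdgfb on chromosome 15 at 79995865 to 80024614, all on the minus strand.

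Lower in level but with large rises were Srgap3, a Slit-Robo GTPase-activating protein, from 2.66 and 1.62 CPM to 30.7 and 37.4 CPM (3.98 ± 0.29), and Ston2, an endocytic adaptor (3.78 ± 0.42). The zinc finger factor Sall2 rose by 3.75 ± 0.29, the TNF receptor family member Relt by 3.30 ± 0.25 and the phospholipase C-like protein Plcl1 by 3.38 ± 0.39. Sh3pxd2a, a scaffold of podosomes, rose from 15 and 13.3 CPM to 85.7 and 78.9 CPM, and Loxl2, a lysyl oxidase that crosslinks collagen, from 12.9 and 15.4 CPM to 69.8 and 71.8 CPM. Hsph1, a large heat shock protein, went from 79.5 and 103 CPM to 386 and 389 CPM. Stambpl1, a deubiquitinase, the repair factor Ercc6, Fam53b, and Vnn3, a member of the pantetheinase family, rose by 2.07 to 2.29. Lpar6, a lysophosphatidic acid receptor, S1pr4, a sphingosine 1-phosphate receptor, and the sialyltransferase St6gal1 rose by 2.89 ± 0.39, 2.17 ± 0.43 and 2.09 ± 0.45 from under 3 CPM in LPS. Of the 25 genes raised most, 21 kept their calls in each fit without 1 library. Those of Plcl1 (edgeR adjusted p = 0.0525 without LPS + VD3 2), Lpar6, S1pr4 and St6gal1 did not. Without LPS + VD3 1 or 2 the latter 3 had adjusted p from 0.0557 to 0.202, and St6gal1 was also lost without LPS 1 (0.0992) and without control 1 or 2 (0.0679 and 0.0695). Of the 25, 13 had a control mean above the LPS mean, Vdr and Tgfbr2 among them, and the other 12 had a control mean at or below it, as Acpp and Pdgfb did.

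**Figure D3:**
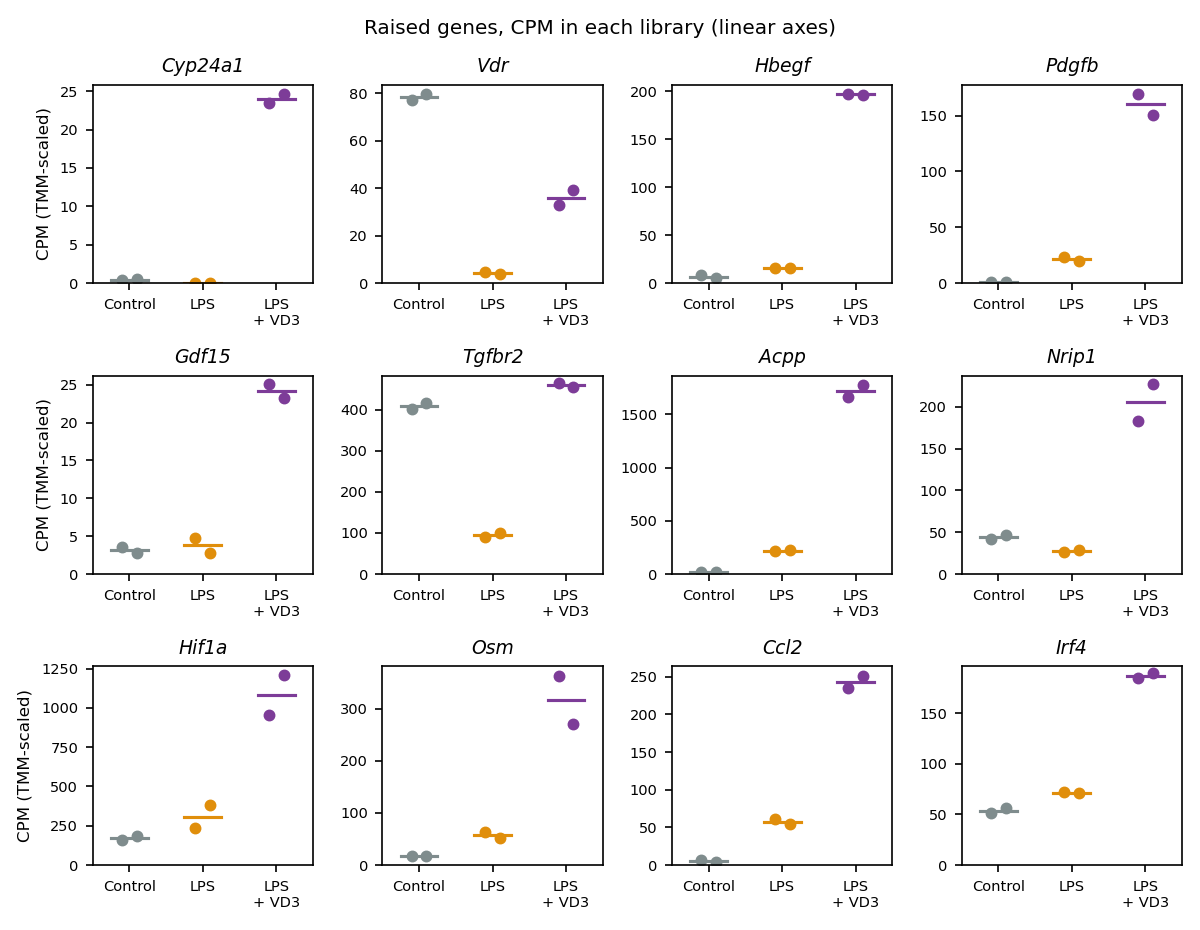
CPM in each library (points) and group means (bars) for 12 raised genes in control, LPS and LPS + VD3, on linear axes that start at 0. In each panel both LPS + VD3 libraries lie above both LPS libraries. Control lies above LPS for Vdr, Tgfbr2 and Nrip1 and below it for Acpp, Pdgfb, Osm and Ccl2.

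Genes of interferon signalling moved in both directions, and how the calls were split depended on the fit. Of 34 tested, 5 fell and 1, Irf4, rose, with a median of -0.11 (-0.14 to -0.05 over the 9 fits). The counts were 6 and 4 with GC offsets, and 1 and 1 with no filter beyond 1 count. Of the 34 fold changes, 20 were negative and 14 positive. Socs1, an inhibitor of Jak kinases that interferon and cytokines induce, was at 39.1 and 12.7 CPM in LPS and 4.18 and 1.99 CPM in LPS + VD3, against 1.54 and 0.64 CPM in control. The LPS libraries differ widely for this GC-rich transcript, and both lie above both LPS + VD3 libraries. The fold change was -3.07 ± 0.57 (edgeR adjusted p = 0.0156), and -2.59 with GC offsets. Irf1, a transcription factor of interferon responses, was at 67.2 and 52.7 CPM in LPS and 26.8 and 24.4 CPM in LPS + VD3, a log2 fold change of -1.23 ± 0.19 (edgeR adjusted p = 0.00712). Irf7, which amplifies the interferon response, Cish, a further cytokine-induced inhibitor, and the signal transducer Stat5a also fell, with log2 fold changes of -1.15 ± 0.27, -1.18 ± 0.22 and -0.81 ± 0.16. Irf4, in contrast, was at 71.9 and 71.1 CPM in LPS and 185 and 189 CPM in LPS + VD3, a rise of 1.39 ± 0.15 (edgeR adjusted p = 0.000915). Jak1 and the phosphatase Ptpn1 were at 0.13 ± 0.17 and 0.13 ± 0.16 and did not pass. Jak2, at 0.73 ± 0.18, missed the threshold (0.0512) and passed with GC offsets (0.00817). Il10, an anti-inflammatory cytokine, had 0 counts in LPS and control and 2 in LPS + VD3, too few to test. Ifnb1, which encodes interferon beta, stood at 3.69 and 2.42 CPM in LPS and 1.25 and 0.795 CPM in LPS + VD3, a fold change of -1.56 ± 0.54 that did not pass (edgeR adjusted p = 0.147).

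Of 54 tested interferon-stimulated effector genes 5 fell and none rose, and 47 of the 54 had a negative fold change, with a median of -0.43 (-0.62 to -0.23 over the 9 fits). By comparison 5393 of the 10724 genes tested had a negative fold change. Mx1, a GTPase that blocks viral replication, was at 104 and 87.1 CPM in LPS and 47.9 and 52.3 CPM in LPS + VD3, a log2 fold change of -0.93 ± 0.17 (edgeR adjusted p = 0.0147), with control at 8.72 and 7.84 CPM. Ifit2, an antiviral protein, Slfn1, Ifit3 and the ADP-ribosyltransferase Parp12 also fell, with -0.90 ± 0.17, -1.62 ± 0.30, -0.86 ± 0.19 and -0.73 ± 0.17. Ifit3 and Slfn1 have close relatives in the mouse genome, so their counts are uncertain. Of the members with the highest levels, Parp14, Slfn2 and the RNA sensor Ifih1 were at -0.06 ± 0.14, -0.13 ± 0.16 and 0.31 ± 0.16 and did not pass. Slfn1 did not pass with DESeq2 (0.119). With GC offsets 13 of the 54 fell and 1 rose, and without LPS 1 the counts were 8 and 1, with a median of -0.23. Of 13 tested interferon-inducible GTPases 3 fell, Igtp, Irgm2 and Mx1, and none rose. Igtp and Irgm2, neighbouring immunity-related GTPases on chromosome 11, were at 44.9 and 37.4 against 17.8 and 17.5 CPM and at 69.9 and 63.4 against 36 and 42.3 CPM. Their log2 fold changes were -1.22 ± 0.20 and -0.77 ± 0.17. The counts of both are uncertain, since 8.01% of the exon bases of Igtp and 4.39% of those of Irgm2 are shared with the other on the same strand. Gbp5 and Gbp7, guanylate-binding proteins, were at -0.06 ± 0.14 and 0.36 ± 0.20 and did not pass.

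All these calls but that of Irf4 were lost without either LPS + VD3 library. Without LPS + VD3 1 the edgeR adjusted p ran from 0.0915 (Slfn1) to 0.212 (Ifit3), and without LPS + VD3 2 from 0.156 (Irf1) to 0.405 (Irf7). Irf7, Stat5a, Ifit3, Parp12 and Irgm2 were also lost without control 1 or control 2 (0.0615 to 0.12), and Irf7 without LPS 1 (0.0538). With no filter beyond 1 count Socs1, Irf7, Cish, Stat5a, Mx1, Ifit2, Ifit3, Parp12 and Irgm2 did not pass (0.0512 to 0.172).

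Genes that interferon induces often carry a response element near the start, searched here on both strands as GAAA followed, after any 2 bases, by GAAA. It was found in 3.44% of all windows, 3.16% of those of tested genes, 2.51% of those of higher and 4.92% of those of lower genes. Of the windows of tested interferon-stimulated effectors 46.8% held it, and 20.0% of the 5 windows of the lowered effectors. For the interferon-inducible GTPases the shares were 80.0% of 10 windows and 100.0% of the 2 windows of lowered members. These windows are too few to compare. A match was found in 6 higher and 9 lower genes, among the latter Cxcl14, and of the lowered interferon genes above Socs1, Igtp, Irgm2 and Ifit3 held it before the start. Their stretches are shown to let the matches be compared, with the matches in capitals (build GRCm38.p6, read along the gene). The Socs1 stretch is chr16:10785589-10785634 on the minus strand, 98 to 53 bases before the start, and holds 2 overlapping matches. The others lie on the plus strand: Igtp at chr11:58199507-58199546, Irgm2 at chr11:58214898-58214937 and Ifit3 at chr19:34583358-34583431.
Socs1: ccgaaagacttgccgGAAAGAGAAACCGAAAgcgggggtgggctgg
Igtp: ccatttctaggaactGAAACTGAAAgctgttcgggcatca
Irgm2: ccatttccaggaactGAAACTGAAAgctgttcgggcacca
Ifit3: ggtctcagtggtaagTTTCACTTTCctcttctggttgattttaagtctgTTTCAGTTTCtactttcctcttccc
The Igtp and Irgm2 stretches, from neighbouring genes, differ in 2 of 40 bases. The capitals of Ifit3 are matches on the opposite strand. A match does not show that the element acts here.

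Of 35 tested genes of antigen presentation and costimulation 5 fell and 1 rose, with a median of -0.35 that was -0.20 with GC offsets and -0.12 without LPS 1 (-0.53 to -0.11 over the 9 fits). Without LPS 2 the counts were 19 and 2. Cd40, a costimulatory receptor that T cells engage, was at 82.2 and 50.1 CPM in LPS and 13.2 and 16.7 CPM in LPS + VD3, with 0 CPM in both control libraries. It fell by 2.14 ± 0.28 (edgeR adjusted p = 0.00364), and its transcript is near the middle of the GC range. Of the genes that supply peptides to class I molecules 3 fell, and the others tested in this list did not pass. The log2 fold changes were -1.13 ± 0.24 and -1.05 ± 0.22 for the transporter subunits Tap1 and Tap2 and -1.52 ± 0.34 for the immunoproteasome subunit Psmb9. Tap1 was at 141 and 84.2 CPM in LPS and 56.2 and 46.9 CPM in LPS + VD3, with control at 18.6 and 19.4 CPM. These 3 transcripts are GC-rich, LPS 1 lies above LPS 2 for each, and with GC offsets the values were -0.76, -0.71 and -1.25. Psmb9 and Tap1 also share exon bases on opposite strands (15.7% of Psmb9). Icam1, the adhesion molecule that binds leukocyte integrins, was at 433 and 370 CPM in LPS and 212 and 222 CPM in LPS + VD3, a log2 fold change of -0.89 ± 0.15. Cd80, a ligand of Cd28, moved up from 20.9 and 22.2 CPM to 56.7 and 59.8 CPM, a rise of 1.43 ± 0.19. The class I genes H2-D1 and B2m and the inhibitory ligand Cd274 were at -0.24 ± 0.19, 0.52 ± 0.23 and -0.11 ± 0.15 and did not pass. With LPS + VD3 2 left out all 6 calls were lost (edgeR adjusted p from 0.069 to 0.387), and without LPS + VD3 1 all but that of Cd80 (0.105 to 0.156). Psmb9 was also lost without LPS 1 (0.0711), and Tap2 without control 1 or 2 (0.0549 and 0.0539).

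Of 48 tested genes of Tlr4 and NF-kB signalling, through which LPS is sensed, 1 rose and 1 fell, a share close to the 3.83% called among all genes tested. Their median was -0.06 (-0.06 to 0.00 over the 9 fits), and without LPS 2 the counts were 9 and 13. Of 27 toll-like and other pattern receptors none passed the edgeR test. At an unadjusted p under 0.05 4 of the 27 were higher and 3 lower, DESeq2 called 1 lower and limma-voom none, and with GC offsets 1 was higher and 5 lower. Tlr4 was at 66 and 126 CPM in LPS and 101 and 107 CPM in LPS + VD3, inside the span of the LPS libraries. Cd14 was at 533 and 352 CPM in LPS and 394 and 293 CPM in LPS + VD3, which overlap. Nfkbia, the inhibitor that NF-kB induces, was at 514 and 391 CPM against 495 and 475 CPM. The NF-kB subunit Nfkb1, the inhibitor Tnip1 and the paracaspase Malt1 were at -0.04 ± 0.14, -0.15 ± 0.15 and -0.06 ± 0.17. The receptors Tlr2, Clec7a and Clec4n were at -0.16 ± 0.15, 0.07 ± 0.16 and -0.35 ± 0.14. Nfkbie, another NF-kB inhibitor, fell by 1.08 ± 0.23 (edgeR adjusted p = 0.0292) from 151 and 103 CPM to 59.2 and 61.4 CPM. Ticam2, an adaptor of Tlr4, rose by 1.06 ± 0.17 (edgeR adjusted p = 0.00678), but 19.9% of its exon bases are shared with Tmed7 on the same strand. Both calls were lost without LPS + VD3 1 (0.186 and 0.0917) or LPS + VD3 2 (0.294 and 0.0889).

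Genes of cholesterol export were lower where they passed. Of 23 tested genes of cholesterol export and the oxysterol receptors called LXR, 4 fell and none rose, with a median of -0.19 that was -0.05 with GC offsets (-0.22 to -0.02 over the 9 fits). Abca1, which loads cholesterol onto apolipoprotein A-I, was at 143 and 172 CPM in LPS and 54.1 and 53.1 CPM in LPS + VD3, with control at 14.5 and 13.8 CPM. It fell by 1.56 ± 0.16 (edgeR adjusted p = 0.000832) and lies on chromosome 4 at 53030789 to 53159988. Abcg1, which exports cholesterol to high-density lipoprotein, was at 218 and 170 CPM in LPS and 74.4 and 78.9 CPM in LPS + VD3, with control at 479 and 494 CPM. For Abca1 the fall was toward control, and for Abcg1 it was away from control. Nr1h3, the gene of LXR alpha, fell by 1.70 ± 0.27, from 49.0 and 31.5 CPM to 10.9 and 13.9 CPM. Mylip, an LXR target that encodes a ubiquitin ligase, fell by 1.66 ± 0.28, from 12.3 and 15.6 CPM to 4.18 and 4.57 CPM. Ch25h, which makes 25-hydroxycholesterol, the lipase Lpl and the cholesterol carrier Npc2 were at 0.03 ± 0.20, 0.18 ± 0.17 and 0.13 ± 0.16 and did not pass. None of 26 cholesterol synthesis and uptake genes passed the edgeR test, with or without GC offsets, and none passed with DESeq2 or limma-voom. At an unadjusted p under 0.05 3 were lower and none higher, and without LPS 2 9 fell and 1 rose. The synthesis enzymes Hmgcs1 and Idi1 were at 0.11 ± 0.15 and 0.32 ± 0.19. Abca1 was 1 of 2 lower genes, with Tgfbi, whose calls held in each fit without 1 library. The calls of Abcg1, Nr1h3 and Mylip were lost without LPS + VD3 1 (edgeR adjusted p = 0.0558, 0.127 and 0.113) or LPS + VD3 2 (0.059, 0.112 and 0.133).

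**Figure D4:**
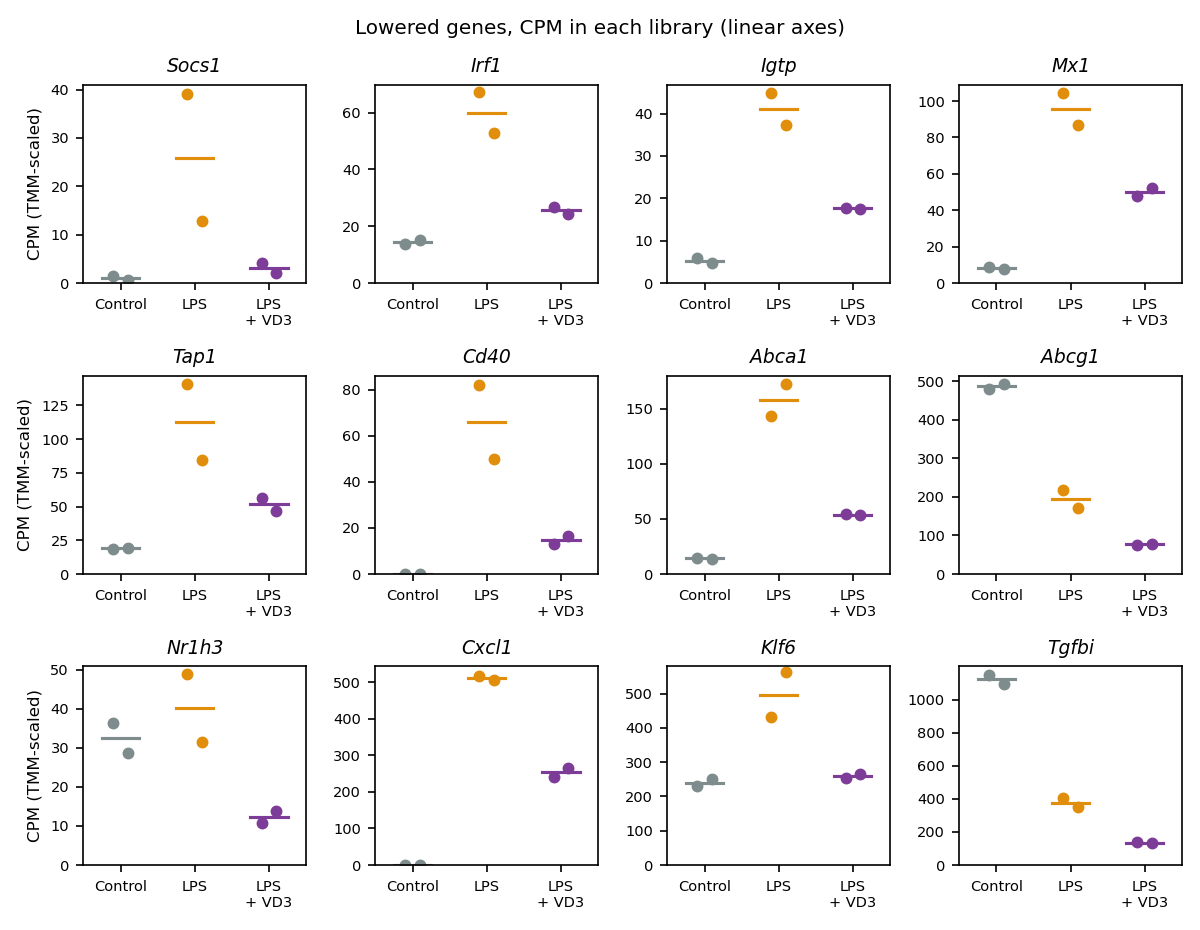
CPM in each library (points) and group means (bars) for 12 lowered genes in control, LPS and LPS + VD3, on linear axes that start at 0. In each panel both LPS + VD3 libraries lie below both LPS libraries. LPS 1 lies well above LPS 2 for Socs1, Tap1, Cd40 and Nr1h3, and control lies above LPS for Abcg1 and Tgfbi.

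Besides these, the genes lowered most, among those with a mean log2 CPM of at least 2, were Arap3, Arhgef40 and Rhof. They belong to small GTPase signalling and had log2 fold changes of -2.66 ± 0.35, -2.34 ± 0.31 and -2.32 ± 0.40. Arap3 was at 11.5 and 10.7 CPM in LPS and 2.09 and 1.39 CPM in LPS + VD3, and Arhgef40 at 9.63 and 10.1 against 1.88 and 1.99 CPM. The groups were well apart for both. Among 37 tested small GTPases and their regulators 4 fell, the last being Vav1 (-0.64 ± 0.15), and 2 rose, Srgap3 and Arhgap24 (1.30 ± 0.23), with a median of 0.00 (-0.002), from -0.14 to 0.02 over the 9 fits. Cdc42, Rhoa and Dock10 were at 0.10 ± 0.14, 0.17 ± 0.17 and 0.09 ± 0.17. Tgfbi, an extracellular matrix protein that TGF-beta induces, was at 406 and 349 CPM in LPS and 138 and 132 CPM in LPS + VD3, with control at 1149 and 1094 CPM. It fell by 1.49 ± 0.15 (edgeR adjusted p = 0.00064), and a link to the rise of the TGF-beta receptor Tgfbr2 was not tested. Id1, another gene that responds to the TGF-beta family, fell by 1.68 ± 0.36. The nuclear receptor Rarg, the sphingosine 1-phosphate receptor S1pr2, the orphan receptor Gpr85, the pyruvate carboxylase Pcx, the proteoglycans Cspg4 and Gpc1 and the glycosyltransferase B3gnt7 fell, with log2 fold changes from -1.71 to -1.46. Phf1, a Polycomb-associated protein, Rnf144b, a ubiquitin ligase, Mfsd12, a lysosomal transporter, and Wdr6 fell as well, with values from -1.54 to -1.47. The counts of Mfsd12 and Rhof are uncertain without strand, since 17.4% and 11.2% of their exon bases lie opposite other genes. Of the 25 genes lowered most, 14 had a control mean below the LPS mean. The 4 small GTPase genes that fell, Arhgap24 and the genes named after Tgfbi lost their calls without LPS + VD3 2 (edgeR adjusted p from 0.0672 to 0.38), and without LPS + VD3 1 all of them but Arap3 did (0.0537 to 0.182). Vav1, Id1, Rnf144b and Wdr6 were also lost without control 1 or 2 (0.0633 to 0.168), Id1, Gpc1 and Wdr6 without LPS 1 (0.0775 to 0.111), and Phf1 and Wdr6 with GC offsets (0.0506 and 0.0539). Among 20 tested nuclear receptors and coregulators 1 rose, Nrip1, and 2 fell, Nr1h3 and Rarg.

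A list of 46 tested genes linked to alveolar macrophages was broad, and not all of its members define these cells. In control, Klf2 was at 4.79 and 2.88 CPM and Abca1 at 14.5 and 13.8 CPM. Of the 46 genes 2 rose, Tgfbr2 and Olr1, and 2 fell, Abca1 and Abcg1. Set beside the 3.83% of all genes tested this is a larger share, in a list chosen with earlier results known. The median of the 46 genes was -0.07 (-0.13 to -0.03 over the 9 fits). With GC offsets 2 rose and 7 fell, and without LPS 2 the counts were 10 and 9. Their summed level was 54700 and 54700 CPM in LPS, 56600 and 57000 CPM in LPS + VD3 and 50900 and 52100 CPM in control. None was at 0 in all libraries. The largest part was Chi3l3, at 17200 and 16200 CPM in LPS and 15900 and 11900 CPM in LPS + VD3. Spp1 went the other way, from 3780 and 3980 CPM to 4890 and 4550 CPM, so the sum says little about single members. Chi3l3, Marco, Itgax and Pparg, a nuclear receptor these cells depend on, were at -0.26 ± 0.17, 0.05 ± 0.14, 0.10 ± 0.14 and 0.40 ± 0.16 and did not pass. Olr1, a scavenger receptor for oxidised lipoprotein, rose by 0.82 ± 0.19 (edgeR adjusted p = 0.0449) from 1093 and 1573 CPM to 2129 and 2579 CPM. Of 10 tested genes known from peritoneal macrophages 2 rose. Gata6, the transcription factor that sets the peritoneal programme, was at 0.41 and 0.404 CPM in LPS and 8.99 and 13.1 CPM in LPS + VD3, with control at 0.171 and 0.16 CPM. It rose by 4.69 ± 0.46 (edgeR adjusted p = 0.000286), and Naip1, an inflammasome sensor, rose by 1.70 ± 0.28. The peritoneal genes Fn1, F10 and Marco did not pass (0.59 ± 0.16, -0.39 ± 0.15 and 0.05 ± 0.14), and Fn1, the gene of fibronectin, passed with GC offsets (0.00294). Of 16 tested Notch pathway genes 1 rose, the target Hey1, from 1.23 and 0.808 CPM to 20.1 and 15.1 CPM, while Notch2 and the proteases Adam10 and Adam17 were at -0.01 ± 0.14, 0.13 ± 0.20 and -0.03 ± 0.17. Of 18 tested genes of alternative activation 3 rose and none fell: Irf4, Myc by 1.36 ± 0.20 and the transglutaminase Tgm2 by 1.02 ± 0.16. The calls of Gata6 and Hey1 held in each fit without 1 library. Without LPS + VD3 2 those of Olr1, Naip1, Myc and Tgm2 were lost (0.0881 to 0.391), and without LPS + VD3 1 those of Olr1, Naip1 and Tgm2 (0.082 to 0.132). The Olr1 call was also lost without control 1 or 2 (0.099 and 0.0969), in the fit of the 4 compared libraries (0.0995) and with DESeq2's size factors (0.051).

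Of 34 tested immediate early genes 5 fell and 2 rose, with a median of -0.09 that was 0.19 with GC offsets (-0.20 to 0.19 over the 9 fits). With GC offsets 5 fell and 7 rose. The zinc finger factor Klf6 was at 431 and 562 CPM in LPS and 255 and 265 CPM in LPS + VD3, with control at 231 and 250 CPM, a log2 fold change of -0.93 ± 0.16 (edgeR adjusted p = 0.0122). Klf16, Ier5, Maff and Batf3, also transcription factors or early response genes, fell, with log2 fold changes of -1.11, -1.25, -0.90 and -1.39, and Klf16 and Batf3 lost their calls with GC offsets (0.0779 and 0.0825). Myc, a driver of cell growth, rose. Atf3, Fosl2 and Btg1 were at -0.65 ± 0.17, 0.53 ± 0.14 and 0.31 ± 0.16 and did not pass, though Atf3 and Fosl2 did with GC offsets (0.0187 and 0.00323). None of 14 MAP kinase phosphatases and related brakes passed the edgeR test, DESeq2 or limma-voom, with 3 higher and 3 lower at an unadjusted p under 0.05. Of 33 tested genes of growth arrest and survival, Gadd45a and the cell death inducer Bcl2l11 rose, the latter by 0.96 ± 0.16, and the survival gene Bcl2l1 and the kinase Pim1 fell (-1.56 ± 0.25 and -0.82 ± 0.19). Bcl2l1 was at 51.2 and 31.5 CPM in LPS and 12.8 and 15.3 CPM in LPS + VD3, and Bcl2l11 at 110 and 98.6 against 215 and 191 CPM. Of 42 tested genes of the cell cycle and DNA replication 2 rose and none fell, a share close to the 3.83% called among all genes tested. Positive fold changes were found for 33 of the 42, against 5329 of the 10724 genes tested. The median of the list was 0.28 (0.16 to 0.35 over the 9 fits). Without LPS 2 the counts were 11 and 2. Ccnd2, the cyclin that drives entry into the cycle, was at 944 and 986 CPM in LPS and 2160 and 2217 CPM in LPS + VD3, a rise of 1.18 ± 0.14 (edgeR adjusted p = 0.00152), and Ccne2, a cyclin of the start of replication, rose by 1.36 ± 0.24, with 10.5% of its exon bases opposite another gene. The proliferation marker Mki67, the replication clamp Pcna and the inhibitor Cdkn1a did not pass (0.41 ± 0.19, 0.02 ± 0.14 and -0.01 ± 0.16). The Ccnd2 call held in each fit without 1 library. With LPS + VD3 2 left out the calls of Klf6, Klf16, Ier5, Maff, Batf3, Bcl2l1, Bcl2l11, Pim1 and Ccne2 were lost (edgeR adjusted p from 0.109 to 0.365), as they were without LPS + VD3 1 (0.0562 to 0.215). Klf16, Maff, Batf3 and Pim1 were also lost without control 1 or 2 (0.0738 to 0.0922), and Klf16 and Batf3 without LPS 1 (0.061 and 0.117).

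Purine receptors moved in both directions. Of 22 tested genes of adenosine and purine signalling 2 fell and 1 rose, with a median of 0.30 that was 0.21 with GC offsets and -0.04 without LPS 1 (-0.04 to 0.30 over the 9 fits). The adenosine receptors Adora2a and Adora2b, which raise cyclic AMP and restrain inflammation, were at 50.4 and 38.6 against 20.3 and 18.1 CPM and at 127 and 105 against 55.8 and 42.7 CPM. Their log2 fold changes were -1.21 ± 0.21 and -1.23 ± 0.19 (edgeR adjusted p = 0.0106 and 0.00609), and that of Adora2a, a GC-rich transcript, was -0.79 with GC offsets. P2ry13, a receptor for ADP, was at 27.0 and 27.9 CPM in LPS and 83.4 and 95 CPM in LPS + VD3, a rise of 1.70 ± 0.17 (edgeR adjusted p = 0.000558), with control at 57.8 and 59.1 CPM. Among lipid mediator genes Pla2g7, which degrades platelet-activating factor, rose by 1.09 ± 0.14 and the lysosomal phospholipase Pla2g15 fell by 1.13 ± 0.21. The prostaglandin synthases Ptges and Ptges3 and the thromboxane synthase Tbxas1 were at -0.35 ± 0.22, 0.26 ± 0.20 and -0.25 ± 0.19.

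Irg1, which makes itaconate, was at 3264 and 2971 CPM in LPS and 4687 and 5495 CPM in LPS + VD3, a rise of 0.71 ± 0.15 (edgeR adjusted p = 0.0305). It was the 1 call among 13 tested genes of itaconate, nitric oxide and arginine metabolism. Complement C3 was at 648 and 652 CPM in LPS and 1306 and 1471 CPM in LPS + VD3, a rise of 1.10 ± 0.14. Lcn2, which binds bacterial siderophores, fell by 1.76 ± 0.33, from 33.2 and 20.2 CPM to 6.9 and 8.75 CPM. The inflammasome sensor Naip2 rose by 0.78 ± 0.14, while Nlrp3, at -0.57 ± 0.14, missed the threshold (0.0534) and passed with GC offsets (0.0119). Among 25 tested genes of glycolysis and hypoxia the 2 that rose were Hif1a and the collagen prolyl hydroxylase P4ha1 (0.74 ± 0.16), while the glycolytic enzymes Aldoa, Gapdh and Pkm were at -0.43 ± 0.17, -0.19 ± 0.17 and -0.24 ± 0.14 and did not pass. Of 30 genes of the unfolded protein and heat shock responses Hsph1 and the co-chaperone Dnajb9 (1.06 ± 0.21) rose. None of 28 oxidative phosphorylation and 24 ribosomal protein genes passed the edgeR test, DESeq2 or limma-voom. At an unadjusted p under 0.05 4 and 2 of them were lower and 1 and none higher. Without LPS 2, which leaves LPS 1 alone, 11 and 13 of them fell and 1 and none rose. The calls of P2ry13 and Hsph1 held in each fit without 1 library. Without LPS + VD3 2 those of Adora2a, Adora2b, Pla2g7, Pla2g15, Irg1, C3, Lcn2, Naip2, P4ha1 and Dnajb9 were lost (0.0541 to 0.3), and without LPS + VD3 1 those of Adora2a, Pla2g15, Irg1, Lcn2, Naip2, P4ha1 and Dnajb9 (0.0764 to 0.163). Irg1, Naip2 and P4ha1 were also lost without control 1 or 2 (0.0687 to 0.115).

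Of 32 tested protease and coagulation genes 3 fell and 2 rose. The collagenase Mmp13 was at 92.6 and 112 CPM in LPS and 218 and 230 CPM in LPS + VD3, a rise of 1.13 ± 0.16. Tissue factor, F3, which starts coagulation, was at 10.7 and 14.9 CPM in LPS and 33.2 and 38.8 CPM in LPS + VD3, a rise of 1.49 ± 0.23. Its partner F7 and the urokinase Plau fell (-0.68 ± 0.16 and -1.36 ± 0.30), while the serpin Serpina3g, one of a family of close relatives, fell by 2.39 ± 0.51. The cathepsins Ctsb and Ctsd and the elastase Mmp12 were at -0.10 ± 0.16, -0.14 ± 0.17 and 0.32 ± 0.16. Of 28 tested integrins and adhesion genes 3 fell, Icam1, the junction protein F11r (-0.86 ± 0.18) and the thrombospondin Thbs4 (-1.93 ± 0.30), and 1 rose, the semaphorin receptor Nrp1 (0.83 ± 0.19). Among 26 calcium and phosphate genes the kinase Camkk2 fell by 0.80 ± 0.17 and none rose, a share close to the 3.83% called among all genes tested. With LPS + VD3 2 left out these calls were lost (edgeR adjusted p from 0.0913 to 0.386), and without LPS + VD3 1 all but that of Plau (0.0558 to 0.186). F7, Plau, F11r, Nrp1 and Camkk2 were also lost without control 1 or 2 (0.058 to 0.133), and Serpina3g without LPS 1 (0.0674).

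**Figure D5:**
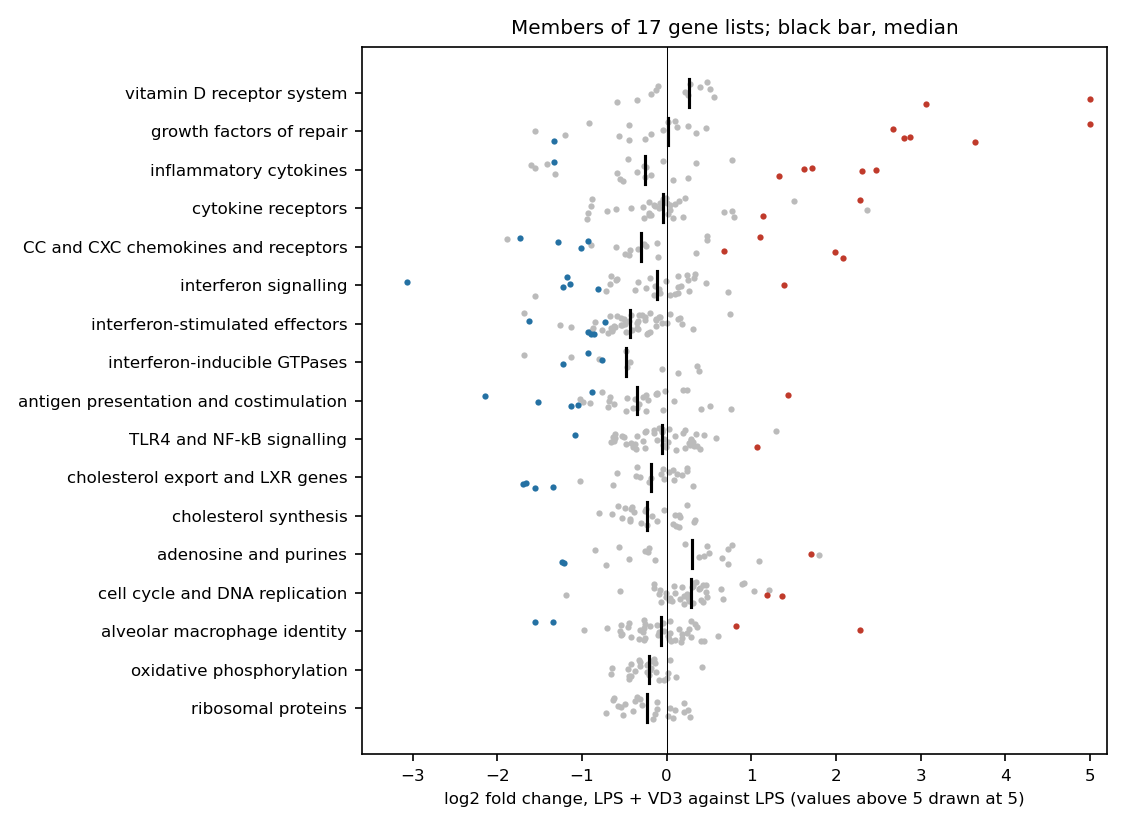
Log2 fold change of LPS + VD3 against LPS (x axis, values above 5 drawn at 5) for the tested members of 17 gene lists (y axis). Red and blue points are members called higher and lower, grey points did not pass, and black bars are medians. The bars of the interferon, antigen presentation and chemokine lists lie between -0.48 and -0.11, and those of the cell cycle and vitamin D receptor lists at 0.28 and 0.27.

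Markers of other cells that a lavage can hold were scarce. The summed levels were 56.4 and 66.9 CPM in LPS and 74.0 and 81.9 CPM in LPS + VD3 for 11 neutrophil markers, 3.89 and 3.84 against 2.72 and 5.17 CPM for 11 lymphocyte markers, 45.7 and 46.5 against 50.6 and 60.0 CPM for 12 epithelial markers (257 and 279 CPM in control), and 12.1 and 12.5 against 15.1 and 15.7 CPM for 8 dendritic cell markers. They were 9.43 and 11.3 against 5.02 and 5.17 CPM for 10 stromal and endothelial markers and 276 and 371 against 186 and 215 CPM for 10 monocyte markers. Mpo, Elane, Cd3e, Gzma, Sftpc, Col3a1, Hba-a1 and Hba-a2 had no count in any library. Cdh1 made up most of the epithelial sum, at 222 and 238 CPM in control, 30.3 and 35.8 CPM in LPS and 37.4 and 49.7 CPM in LPS + VD3. Epcam, another epithelial marker, was at 0.513 and 0.8 CPM in control. Vcan, a matrix proteoglycan at 3.42 and 3.68 CPM in control, made up most of the monocyte sum, at 267 and 365 CPM in LPS and 181 and 204 CPM in LPS + VD3 (-0.72 ± 0.18, edgeR adjusted p = 0.0556, and 0.000583 with GC offsets). The stromal marker Pdgfrb fell, from 3.48 and 4.04 CPM to 0.418 and 0.398 CPM, a call lost without LPS + VD3 1 (0.162) or 2 (0.268). None of 4 neutrophil, 3 epithelial, 2 dendritic cell and 1 lymphocyte marker tested passed edgeR, DESeq2 or limma-voom. At an unadjusted p under 0.05 stood 1 neutrophil, 1 epithelial and 1 dendritic cell marker, among them the dendritic cell receptor Xcr1 at 1.21 ± 0.33 (edgeR adjusted p = 0.0767) and the neutrophil receptor Cxcr2 at 0.97 ± 0.28 (0.0937). Whether fewer cells of a type or less RNA per cell lie behind a level cannot be told apart in bulk RNA, and the part of these cells in the results was not tested.

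Among the 39 higher and 2 lower genes that were called in each of the 17 alternative and leave-one-out fits, some fall outside the lists. Those named here were picked with their values in view. Dot1l, a histone H3 methyltransferase, went from 58.6 and 48.3 CPM to 201 and 215 CPM, and Per2, a gene of the circadian clock, from 8.2 and 9.7 CPM to 33.0 and 35.4 CPM. Grk5, a kinase that desensitises G protein-coupled receptors, went from 18.0 and 24.0 CPM to 88.0 and 87.3 CPM. Ripk2, the kinase that relays signals from Nod receptors, rose by 1.35 ± 0.16, the isocitrate dehydrogenase Idh1 by 1.25 ± 0.15 and the RNA-editing enzyme Adarb1 by 1.65 ± 0.17 (edgeR adjusted p = 0.00156, 0.00162 and 0.000687). For Per2, Grk5, Idh1 and Adarb1 the LPS libraries lie below both control libraries and the LPS + VD3 libraries above them.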

How the data were processed

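RNA of lavaged alveolar macrophages of wild-type mice was measured by poly(A) RNA-seq in 6 libraries, 2 each of control, LPS and LPS + VD3. The deposited table holds raw counts per gene. Per the submitters' processing notes TopHat2, edgeR and the build mm10 were used. Which counting program, annotation and strand setting were used is not given in the sources used here. A second deposited table holds log2 values that match log2(CPM + 1) within 0.00423 for 10327 genes, and served only as an alternative.

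Counts were tested with edgeR 4.0.16 (R 4.3.3) by the quasi-likelihood test, with TMM scaling, the filter of filterByExpr (minimum count 10, minimum total 15), 3 group means over all 6 libraries and Benjamini-Hochberg adjustment over 10724 genes. The fit has 3 residual and 7.01 prior degrees of freedom. The SE was taken as the log2 fold change, without its sign, over the root of the F statistic. Counting intervals are exact at 95% and cover counting error only, and a group at 0 counts was set to a floor of 3 counts. Transcript GC came from GENCODE M21 for 99.3% of the tested genes. The alternatives used DESeq2 1.42.0, limma 3.58.1 and the settings of the closing section.

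Genes named are the 25 raised and 25 lowered most (called, mean log2 CPM at least 2, no overlap), up to 6 called and 3 abundant uncalled members of each gene list, and 16 fixed genes. A few genes this rule names are not reported here. Ccl9, Cxcl14, Batf3 and the 6 genes of the last paragraph of the results fall outside this rule and were chosen after their values were seen. Members, lists and this rule were chosen with earlier results of these data known.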

Additional observations from a re-analysis of the deposited data

How the results depend on the processing

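No gene called in LPS + VD3 against LPS changed its sign in any of the fits. The libraries of these genes do not overlap between the groups, so leaving out 1 library could hardly have reversed a sign. Against 241 higher and 170 lower genes, the counts were within 1.5 times with no scaling beyond library size (233 and 197), DESeq2's size factors inside edgeR (228 and 184), DESeq2 (276 and 242), limma-voom (235 and 142) and a minimum count of 30 (235 and 170). They moved to 123 and 46 with no filter beyond 1 count, where 15510 genes were tested, to 165 and 93 with only the 4 compared libraries, and to 116 and 65 with limma on the deposited log2 table, where 54 called genes had no match. GC offsets gave 483 and 305. Leaving out 1 library in turn gave 50 to 1865 higher and 5 to 1805 lower genes, most without LPS 2 and fewest without LPS + VD3 2. With 1 library left in a group, that library is assumed to vary like the other groups. GC offsets without LPS 1 or LPS 2, chosen after seeing the data, gave 284 to 759 higher and 199 to 644 lower genes. The share of higher among called genes went from 58.6% to 72.8% with no filter and to 90.4% and 90.9% without LPS + VD3 1 or 2. The causes of these moves were not tested.

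The 2 replicate numbers do not establish a pairing: over genes, the replicate 1 minus 2 differences of LPS and LPS + VD3 correlated with r of 0.196. With the replicate block 602 genes were higher and 550 lower, and the block with GC offsets gave 806 and 573. All 411 calls held with the block.

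Of 121 named called genes 49 lost their calls with no filter, 77 without LPS + VD3 1 and 89 without LPS + VD3 2. Among named genes that did not pass, Il6 was at -0.59 with GC offsets without LPS 2 (edgeR adjusted p = 0.0426), against 0.07. At 5022314 to 5465223 counts a library, genes near 1 CPM rest on a handful of reads.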
